A study of Mus musculus with 26 samples.

Results

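Zinc finger proteins named Zfp in the mouse are a large and mixed group of genes, and their transcripts were followed here in CD4 and CD8 double positive (DP) cells from 3 sites. The members were every gene whose symbol was Zfp followed by digits and at most a short suffix, so that Zfp36l1 counted too. They numbered 321 of the 13765 genes in the deposited table, and 233 of them passed the filter on low values (at least 100 normalised reads in at least 4 of the 12 columns). The other 88 were counted but not tested. Just inside that filter lay Zfp369 and Zfp551, which reached 103.4 and 100.6 in the lowest of the 4 columns that counted, and just outside lay Zfp710 and Zfp428, with 93.50 and 81.57.

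Most Zfp proteins carry C2H2 fingers, small folds held by a zinc ion that usually read DNA, often many in a row. Those that also carry a KRAB box recruit the corepressor TRIM28 and silence chromatin, and many of them act on retroelements. A few Zfp names belong to unrelated proteins. Zfp36, Zfp36l1 and Zfp36l2 have CCCH fingers that bind AU-rich elements in messenger RNA and bring in the deadenylation machinery, and the loss of Zfp36l1 and Zfp36l2 together in mouse thymocytes disturbs the DP stage and leads to leukaemia. Zfp608 is known as an inhibitor of Rag1 and Rag2 expression in mouse thymocytes, and Zfp335 is needed for the maturation and survival of young T cells.

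All cells came from female C57BL/6J mice aged 8 weeks and were sorted as viable, CD4+, CD8b+ and TCR-. The groups were aortic arch, mediastinal adipose tissue and thymus, with 4 pools each, and each pool joined the tissue of 5 mice. Lots of 400 cells were sorted, the lysate of 200 cells went into a library, and 9 arch, 8 adipose and 9 thymus libraries were made after 18 cycles of amplification. Arch and adipose tissue were digested before sorting and no digestion is stated for thymus, so tissue and digestion cannot be told apart. Nothing was perturbed; the comparison was between sites.

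The table holds 1 value per gene and pool, a read count divided by a factor for its column, called the normalised read count here. Recovered reads ranged from 11577253 to 26551456 in arch pools, from 14279190 to 33540294 in adipose pools and from 13473516 to 34599519 in thymus pools. Arch pools 2 and 4 and thymus pool 3 had the fewest reads per library, 5788626 to 7145620, and are called the shallow pools. Adipose pool 2, made of 1 library, is not among them, though its total of 14279190 reads was below the 14291241 of arch pool 4. The 12 genes listed for the sort and for DP identity, among them Cd4, Cd8a, Rag1 and Dntt, were all measured. They summed to 10380 to 11230 CPM (reads scaled to a common total) in arch, 8491 to 16580 CPM in adipose tissue and 22640 to 26200 CPM in thymus, and limma called 6 of them lower in arch and 7 lower in adipose tissue against thymus. Markers of other cells were uneven. The 9 fibroblast markers summed to 125.3 to 6008 CPM in arch (highest in pool 4), 59.11 to 388.8 CPM in adipose tissue and 88.92 to 298.4 CPM in thymus, where Col6a1, Lum, Mgp and Pdgfra had no read. Macrophage and monocyte markers (8 of 9 measured) reached 932 CPM in arch pool 2, 224.8 CPM in adipose pool 1 and at most 9.998 CPM in thymus, where C1qa, C1qb, Csf1r and Fcgr1 had no read. Smooth muscle markers (5 of 5) reached 1850 CPM in arch pool 2, 7.543 CPM in adipose tissue and 3.308 CPM in thymus, where Cnn1, Myh11 and Myl9 had no read. B cell markers (4 of 6) reached 309.2 CPM in arch, 1218 CPM in adipose pool 1 and 213.7 CPM in thymus, where Cd79a and Ms4a1 had no read. The 2 of them that passed the filter went in opposite directions, without a limma call. Cd74 had 1287 ± 2350 normalised reads in arch and 4939 ± 9880 in adipose tissue, against 65.26 ± 131 in thymus (SD, n = 4). Cd79b had 1103 ± 797 in arch and 1765 ± 1400 in adipose tissue, against 2336 ± 1240 in thymus. Endothelial markers (4 of 6) reached 112.5 CPM in arch, 209.9 CPM in adipose pool 1 and 107.1 CPM in thymus. Adipocyte markers (3 of 6) reached 10.45 CPM in arch, 165.1 CPM in adipose pool 1 and 12.83 CPM in thymus. Markers of NK and innate lymphoid cells (5 of 9) reached 223.6 CPM in arch, 201.1 CPM in adipose tissue and 337.6 CPM in thymus. The part of these cells in the values below was not tested.

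The Zfp genes that changed between sites were few. In aortic arch against thymus, 3 rose (Zfp958, Zfp259 and Zfp101) and 2 fell (Zfp422 and Zfp280d), 5 of 233, or 2.15%, at a Benjamini-Hochberg adjusted p under 0.05 in limma. The same rule called 6.57% of all 9106 tested genes, 3.99% higher and 2.58% lower. In mediastinal adipose tissue against thymus, 1 of 233 (0.429%), Zfp259, rose, against a background of 2.84% (2.17% higher and 0.67% lower). Between aortic arch and mediastinal adipose tissue limma called 0 of 233, against 0.176% of all tested genes. Both comparisons with thymus share the thymus pools, so a gene called in both is not 2 independent results. In bulk samples of this kind, fewer cells of a type and less RNA per cell cannot be told apart.

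The upstream sequences of the 3 genes that rose are shown because these members rose together in arch and their starts are annotated outside the gene body. They are the 250 bases before the start in RefSeq (GRCm38.p6), in the direction of transcription, at chr8:4612920-4613169 on the plus strand for Zfp958, chr9:46272814-46273063 on the plus strand for Zfp259 (listed in RefSeq as Zpr1) and chr17:33394638-33394887 on the minus strand for Zfp101. For Zfp958 3 starts were listed, and the one farthest upstream is shown. Zfp259 and Zfp101 had 1 each. Which start these cells use was not tested. Capitals mark matches, on either strand, to 6 short motifs that were searched: CCGGAAG (the core bound by ETS factors), CCAAT (the CCAAT box), CACCTG (an E-box bound by E proteins), TGTGGT (Runx), TGANTCA (AP-1) and GAANNTTC (a heat shock element).
Zfp958: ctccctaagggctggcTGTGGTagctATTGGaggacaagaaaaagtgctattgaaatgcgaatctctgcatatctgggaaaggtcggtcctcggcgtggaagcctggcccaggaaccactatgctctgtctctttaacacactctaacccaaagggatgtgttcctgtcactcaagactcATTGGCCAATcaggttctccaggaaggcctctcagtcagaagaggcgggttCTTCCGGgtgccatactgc
Zfp259: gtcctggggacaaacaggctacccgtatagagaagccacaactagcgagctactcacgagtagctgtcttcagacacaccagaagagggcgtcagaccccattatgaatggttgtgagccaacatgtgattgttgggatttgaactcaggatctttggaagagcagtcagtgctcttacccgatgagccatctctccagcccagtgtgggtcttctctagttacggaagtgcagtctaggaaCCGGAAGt
Zfp101: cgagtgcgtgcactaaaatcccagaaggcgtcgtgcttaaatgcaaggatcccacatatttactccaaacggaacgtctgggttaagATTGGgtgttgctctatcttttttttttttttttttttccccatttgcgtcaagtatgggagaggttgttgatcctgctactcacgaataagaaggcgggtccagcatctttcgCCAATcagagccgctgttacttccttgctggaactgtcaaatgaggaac

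Among these windows the Zfp958 sequence held an ETS core 19 bases before the start, a Runx match and 3 CCAAT boxes, a pair of which abut on opposite strands in the run ATTGGCCAAT. The Zfp259 sequence held an ETS core 8 bases before the start, and the Zfp101 sequence held CCAAT boxes 49 and 163 bases before it. No E-box, AP-1 or heat shock match lies in these windows, which says only that those letters are not there. In 32851 RefSeq windows of the same length, the ETS core was present in 6.91%, CCAAT in 33.8%, CACCTG in 17.2%, TGTGGT in 14% (4614 windows), TGANTCA in 6.75% and GAANNTTC in 6.69%. A match is a description of letters and no evidence of binding. The starts listed for Zfp422 and Zfp280d lie inside their gene spans, and their sequences are not shown.

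Zfp958 showed the largest log2 change among the 233 tested Zfp genes in arch against thymus. It encodes a KRAB protein of 467 residues with 13 C2H2 fingers, on chromosome 8 (4613170 to 4632572). Its normalised read counts were 892.5, 1164, 1596 and 663.9 in arch pools 1 to 4, then 410.8, 1126, 363 and 670 in adipose pools 1 to 4, against 73.02, 133.1, 0 and 36.3 in thymus pools 1 to 4. Every arch pool and every adipose pool lay above every thymus pool, and arch and adipose pools overlapped. The log2 change was 4.05 ± 0.87 (SE, n = 4 pools per tissue; limma adjusted p = 0.00747) in arch against thymus. In adipose tissue against thymus it was 3.25 ± 0.87 and just missed the threshold (limma adjusted p = 0.051). The arch call held without any 1 of the 12 pools and without the 3 shallow pools, but edgeR on the recovered reads gave an adjusted p of 0.071.

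Zfp259 encodes ZPR1, a protein with zinc fingers of another type that moves to the nucleus after growth factor signals and binds the SMN complex. No C2H2 motif was found in its 459 residues, and the gene lies on chromosome 9 (46273064 to 46282643). It had 3036, 2705, 5173 and 1741 normalised reads in arch pools 1 to 4, 3068, 2935, 2402 and 3164 in adipose pools 1 to 4, and 275.7, 1315, 697.7 and 1319 in thymus pools 1 to 4. The adipose values lay close together, and the lowest value outside the thymus, in arch pool 4, was still above the highest thymus value. In limma its log2 change was 1.91 ± 0.48 in arch against thymus (limma adjusted p = 0.0206) and 1.88 ± 0.48 in adipose tissue against thymus (limma adjusted p = 0.0357; SE, n = 4 each). Without thymus pool 1 the limma adjusted p became 0.0594 in arch and 0.102 in adipose tissue, and without arch pool 3 it became 0.0645 in arch. The adipose call was also lost without thymus pool 3 (0.0777) and without any 1 of the 4 adipose pools (limma adjusted p from 0.0735 to 0.111).

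Zfp101, a KRAB gene on chromosome 17 (33380174 to 33394637) with 12 fingers, had 1373, 3239, 1765 and 1555 normalised reads in arch pools 1 to 4, 812.4, 2117, 392.6 and 1267 in adipose pools 1 to 4, and 211.1, 863.9, 150 and 556.8 in thymus pools 1 to 4. All arch pools were above all thymus pools, while adipose pools spread across both. The fit gave a log2 change of 2.33 ± 0.66 in arch against thymus (SE, n = 4 each; limma adjusted p = 0.0411) and 1.39 ± 0.66 in adipose tissue against thymus (limma adjusted p = 0.388). Leaving out 1 pool ended the arch call in 9 of 12 fits (limma adjusted p from 0.0503 without adipose pool 1 to 0.106 without arch pool 2), and it held without thymus pool 2, adipose pool 2 or adipose pool 3. Without the 3 shallow pools the arch call was also lost, with a log2 change of 1.69 (limma adjusted p = 0.264). The gene sits within 200 kb of Zfp81, Zfp955a and Zfp955b, which were looked at because of that position. Their log2 changes in arch against thymus were 0.26, -0.53 and 0.00063, with limma adjusted p of 0.932, 0.763 and 1.

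**Figure D1:**
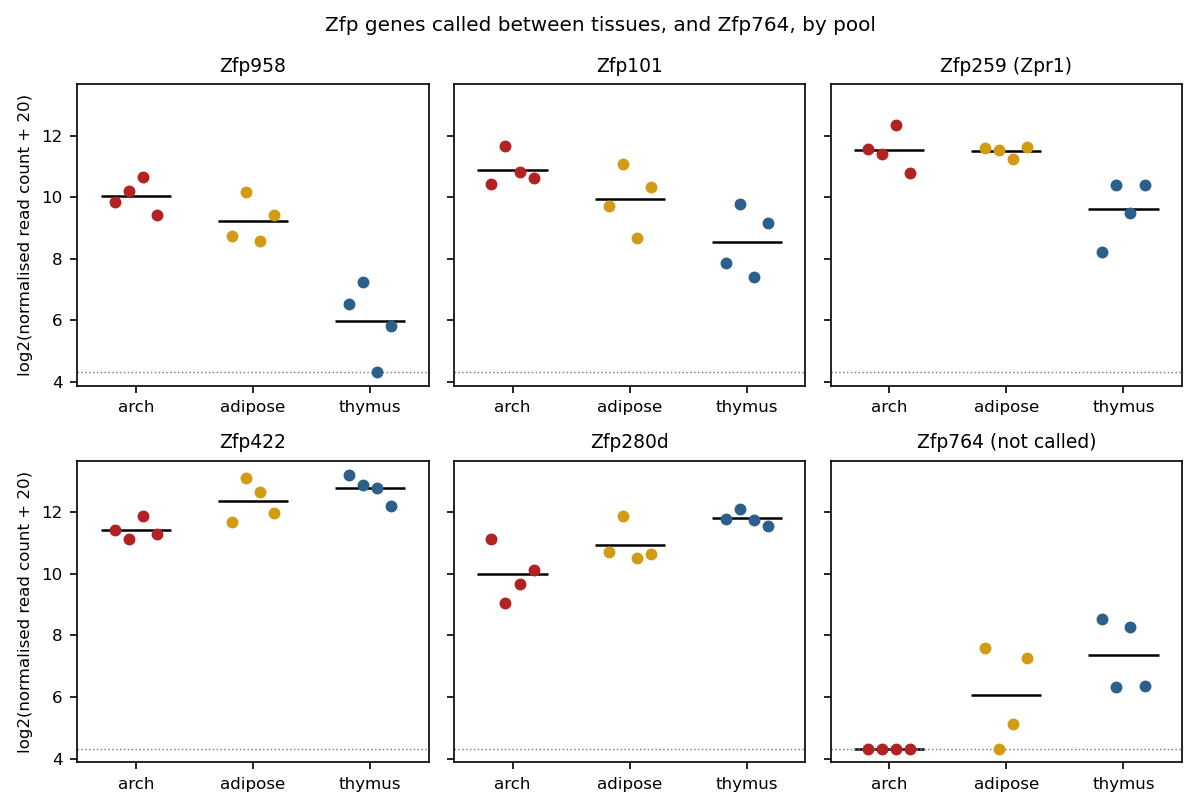
Normalised read counts of the 5 called Zfp genes and of Zfp764, each point 1 pool of 5 mice on a log2(value + 20) axis, with black bars for the mean of the log2 values of 4 pools and a dotted line for no read. All arch pools lie above the thymus pools for Zfp958, Zfp101 and Zfp259 and below them for Zfp422, Zfp280d and Zfp764.

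Zfp422 fell in arch. It encodes a protein of 237 residues with 5 C2H2 fingers, on chromosome 6 (116624016 to 116628999). Its normalised read counts were 2717, 2233, 3725 and 2483 in arch pools 1 to 4, 3287, 8785, 6412 and 3972 in adipose pools 1 to 4, and 9468, 7449, 7026 and 4726 in thymus pools 1 to 4. The arch values were the lowest and overlapped with adipose tissue only through adipose pool 1. The log2 change was -1.34 ± 0.32 in arch against thymus (SE, n = 4 each; limma adjusted p = 0.0167), -0.42 ± 0.32 in adipose tissue against thymus (limma adjusted p = 0.681) and -0.92 ± 0.32 in arch against adipose tissue (limma adjusted p = 0.378). Without thymus pool 1 the limma adjusted p of the arch change was 0.0642, and without the 3 shallow pools it was 0.153.

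Zfp280d, on chromosome 9 (72274618 to 72363779) with 7 fingers in 974 residues, also fell in arch. It had 2239, 506, 787.4 and 1093 normalised reads in arch pools 1 to 4, 1665, 3722, 1438 and 1592 in adipose pools 1 to 4, and 3487, 4401, 3440 and 2955 in thymus pools 1 to 4. Arch and thymus pools did not overlap, and adipose pool 2 alone of its tissue reached thymus values. In limma its log2 change was -1.81 ± 0.45 in arch against thymus (SE, n = 4 each; limma adjusted p = 0.0208), -0.86 ± 0.45 in adipose tissue against thymus (limma adjusted p = 0.459) and -0.95 ± 0.45 in arch against adipose tissue (limma adjusted p = 0.474). The limma adjusted p of the arch change was 0.0506 without thymus pool 1, 0.0637 without thymus pool 2, 0.0531 without arch pool 2 and 0.148 without the 3 shallow pools.

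Zfp764 was the only member with no read in any pool of a tissue and reads in every pool of another. This KRAB gene on chromosome 7 had 0 in all 4 arch pools and 173.2, 0, 15.15 and 133.3 in adipose pools 1 to 4, against 347, 60.59, 288.4 and 62.69 in thymus pools 1 to 4. With each arch pool set at a floor of 3 reads, it was 49.8-fold lower in arch than in thymus. That floor covers counting error only and not the spread between pools, and an adipose pool also had no read. The fold is therefore not a lower bound for the difference between the tissues. The limma test did not pass (adjusted p = 0.0768), nor did edgeR (adjusted p = 0.0592), while DESeq2 called it (adjusted p = 2.85e-05). Of its 50-base stretches, 28.2% also occur in transcripts of another gene, and reads from those cannot be placed with certainty.

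**Figure D2:**
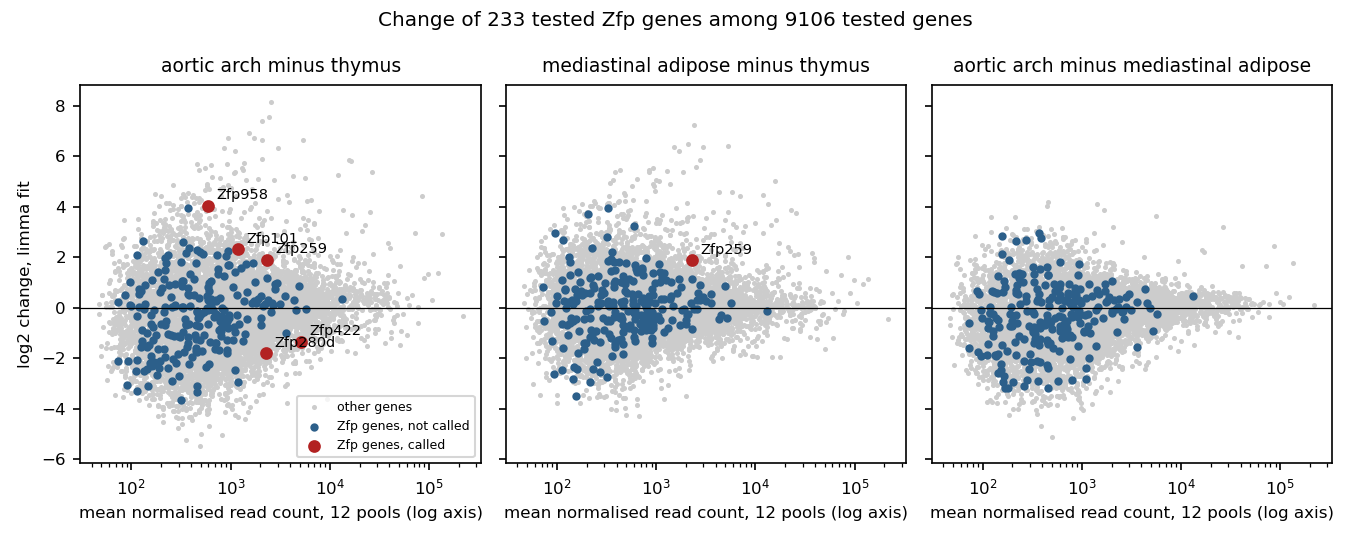
Log2 change of each tested gene against its mean normalised read count over 12 pools (log axis), for 3 comparisons; blue points are Zfp genes that were not called, red points called ones and grey points all other tested genes. The blue points spread widely below a mean of 1000 and few Zfp genes lie above 3000, where grey points draw together.

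Less strict counts included Zfp genes in both directions. At an unadjusted p under 0.05 limma counted 36 members (15.5%; 16 higher and 20 lower) in arch against thymus, against 22.7% of all tested genes. The counts were 19 (8.15%; 12 higher and 7 lower) against 12.8% in adipose tissue against thymus, and 24 (10.3%; 6 higher and 18 lower) against 10.5% in arch against adipose tissue. Pool values did not overlap in 17 members (7.3%; 9 higher and 8 lower) in arch against thymus, and in 13.2% of all tested genes. They did not overlap in 18 members (7.73%) in adipose tissue against thymus, against 10.5%, and in 9 members (3.86%) in arch against adipose tissue, against 5.35%. Each of these shares of members lay below that of all tested genes, a difference that was not tested.

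The other tools differed in how many members they called. With edgeR on recovered reads, Zfp259 and Zfp422 were called in arch against thymus (2 of 233, background 4.01%), and 0 of 233 in adipose tissue against thymus (background 2.33%) and in arch against adipose tissue (background 0.0879%). With DESeq2 the counts were 23 of 274 members that received an adjusted p (background 11.9%) in arch against thymus, all 5 of the limma calls among them. DESeq2 called 8 of 276 (background 6.54%) in adipose tissue against thymus and 8 of 277 (background 2.63%) in arch against adipose tissue.

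The median log2 change of the 233 tested members was -0.19 in arch against thymus, beside -0.20 over all tested genes. It was 0.09 beside -0.01 in adipose tissue against thymus, and -0.26 beside -0.17 in arch against adipose tissue. Each of these member medians changed sign under at least 1 alternative setting, and their difference from all genes was not tested. The spread of the members was wider. In arch against thymus 48.9% of members had a log2 change beyond 1 in either direction, beside 41.9% of all tested genes, and the median standard error of a member was 1.08, beside 0.83.

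Levels of the members were low and reads were often missing. A tested Zfp gene had a median mean of 460.2 normalised reads over the 12 pools, beside 877.7 for all tested genes, and these levels are per gene and not per length. A pool without a single read was found in 120 of the 233 tested members (51.5%), beside 34.4% of tested genes. Only 48 of all 321 members (15%) had a mean above 1000, beside 30.4% of the genes in the table. Even so the members together took a steady share of the normalised total, 0.836% to 1.05% in arch, 0.929% to 1.02% in adipose tissue and 0.904% to 0.993% in thymus.

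Missing reads were most frequent in the shallow pools. Of the 233 tested members, 64 (27.5%) had no read in arch pool 4, 51 (21.9%) in arch pool 2 and 46 (19.7%) in thymus pool 3. The smallest share was 3% in adipose pool 1, with 7 members. In every pool except thymus pool 4 the share of members at 0 exceeded that of all tested genes, which ran from 1.98% to 16.2%. Pools of 1 tissue ranked the members with Spearman correlations of 0.50 to 0.64 in arch, 0.60 to 0.69 in adipose tissue and 0.50 to 0.62 in thymus, beside 0.67 to 0.86 over all tested genes, given as a description across genes.

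**Figure D3:**
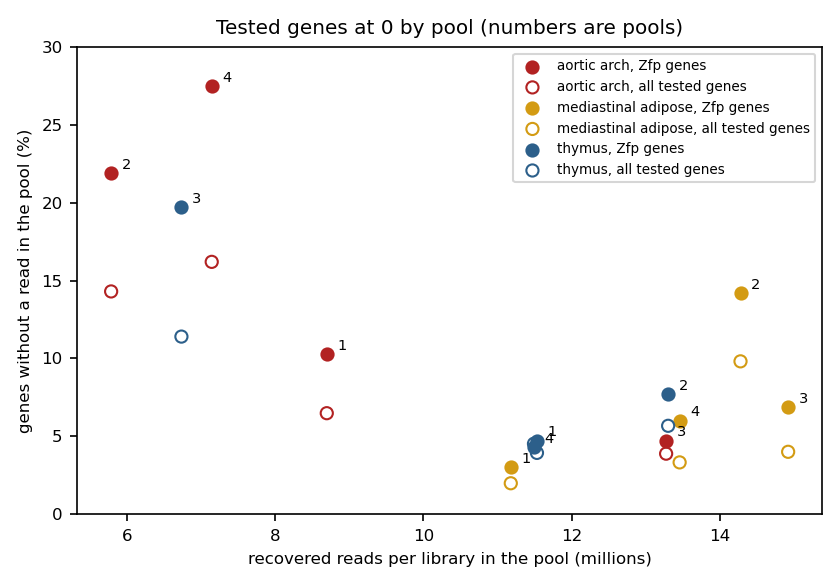
Share of the 233 tested Zfp genes (filled) and of the 9106 tested genes (open) that had no read in a pool, against recovered reads per library, with 1 filled and 1 open point per pool and pool numbers beside the filled points. The filled points of arch pools 2 and 4 and thymus pool 3, from 19.7% to 27.5%, stand above the other pools, and adipose pool 2, made of 1 library, follows at 14.2%.

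Read by level, all but 1 of the limma calls lay among members with a mean of 1000 or more. Of the 48 tested members with a mean of 1000 or more, 4 were called in arch against thymus (8.33%), and Zfp958 was the 1 call among 109 members with a mean of 300 to 1000 (0.917%). Below 300, limma called 0 of 76 members; 10 had an unadjusted p under 0.05, edgeR called 0 and DESeq2 called 9. This pattern was not shared by DESeq2, which called 3 of the 109 members at 300 to 1000 and 7 of the 48 at 1000 or more. Over all tested genes the limma shares were 6.08% at 1000 to 3000 and 20.4% above 3000, and 2.87% at 300 to 1000 and 2.01% below 300. The 39 members between 1000 and 3000 gave 3 calls (7.69%) and the 9 above 3000 gave 1 (11.1%). Within tissues the median coefficient of variation of members was 0.449 at 1000 to 3000, beside 0.416 for all tested genes there, and 1.1 below 300, beside 1.07.

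The Zfp36 family of mRNA decay factors was well expressed at all 3 sites and passed no limma test. Zfp36, or tristetraprolin, an early response gene, had 2989, 10490, 3870 and 5692 normalised reads in arch pools 1 to 4, 4079, 3159, 2611 and 2474 in adipose pools 1 to 4, and 4841, 3960, 3421 and 4529 in thymus pools 1 to 4. The value in arch pool 2 stood apart from the rest, in the pool that also had the highest smooth muscle and macrophage marker sums. Its log2 change was 0.30 ± 0.34 in arch against thymus (SE, n = 4 each; limma adjusted p = 0.64), and without arch pool 2 it was -0.04. In arch against adipose tissue it was 0.76 ± 0.34 (limma adjusted p = 0.461).

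Zfp36l2 had 3192, 1069, 3715 and 3979 normalised reads in arch pools 1 to 4, 4114, 3000, 2255 and 1643 in adipose pools 1 to 4, and 1770, 1058, 1020 and 964.3 in thymus pools 1 to 4. Arch pool 2 lay among the thymus values and the other arch pools lay above all of them. The fit gave a log2 change of 1.18 ± 0.45 in arch (limma adjusted p = 0.12) and 1.14 ± 0.45 in adipose tissue (limma adjusted p = 0.247), each against thymus (SE, n = 4 each). DESeq2 called it in arch against thymus (adjusted p = 0.0278), as did limma without arch pool 2 (adjusted p = 0.0204). Zfp36l1 had 3731, 4424, 2983 and 2259 in arch pools 1 to 4, 6016, 1130, 1599 and 3108 in adipose pools 1 to 4, and 3373, 2120, 1768 and 1099 in thymus pools 1 to 4. The pools overlapped, and its log2 change was 0.74 ± 0.47 in arch against thymus (limma adjusted p = 0.367) and 0.32 ± 0.47 in adipose tissue against thymus (limma adjusted p = 0.868). Its highest value was in adipose pool 1, where the B cell, endothelial and adipocyte marker sums were also highest.

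Genes of the machinery around this family passed no limma test. Of 39 tested genes of AU-rich element decay, such as CCR4-NOT and exosome subunits, limma called 0 in each comparison. In arch against thymus 5 of them (12.8%) had an unadjusted p under 0.05, beside 22.7% of all tested genes, edgeR called 0 and DESeq2 called 3, beside 11.9% of the genes it tested. Their standard errors were often wide, as for the exosome subunit gene Exosc10, with a log2 change of -2.32 ± 1.01 (SE, n = 4 each; limma adjusted p = 0.18), chosen after its value was seen. In adipose tissue against thymus 4 (10.3%) had an unadjusted p under 0.05, beside 12.8% of all tested genes. In arch against adipose tissue 2 (5.13%) did, beside 10.5%, with 0 calls by edgeR and by DESeq2 in both comparisons. Of 16 textbook targets of ZFP36 proteins, 13 were measured and only 3 passed the filter. Fos, the immediate early transcription factor, rose in arch, with 3482 ± 2470 normalised reads against 258.6 ± 225 in thymus (SD, n = 4), a log2 change of 4.17 ± 0.85 (limma adjusted p = 0.00509). There edgeR called 0 of the 3 and DESeq2 called 2 of the 5 it tested. The other 2 that passed the filter lay lower in arch without a call. Myc, a growth regulator, was at -1.14 ± 0.81 (limma adjusted p = 0.428) and Notch1, a receptor of T-cell commitment, at -0.86 ± 1.14 (limma adjusted p = 0.698; SE, n = 4 each). In adipose tissue against thymus Fos was at 2.98 ± 0.85 (limma adjusted p = 0.0726), Myc at -0.79 ± 0.81 (0.791) and Notch1 at -3.10 ± 1.14 (0.209). The median of the 3 log2 changes in arch against thymus was -0.86, beside -0.20 over all tested genes.

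Zfp genes with a known part in thymocytes or T cells gave no limma call either. Zfp830, a nuclear protein of genome maintenance, had 2203, 2220, 1161 and 2851 normalised reads in arch pools 1 to 4, 820.5, 2088, 1966 and 681.3 in adipose pools 1 to 4, and 267.7, 907.3, 1524 and 320.9 in thymus pools 1 to 4. Only thymus pool 3 reached into the arch range. Its log2 change was 1.73 ± 0.60 in arch against thymus (SE, n = 4 each; limma adjusted p = 0.0911; 0.0447 without thymus pool 3) and 1.03 ± 0.60 in adipose tissue against thymus (limma adjusted p = 0.525).

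Zfp335 had 997.6, 1482, 95.3 and 93.29 in arch pools 1 to 4, 1389, 0, 314.8 and 315.2 in adipose pools 1 to 4, and 788.5, 392, 244.7 and 325.8 in thymus pools 1 to 4. The thymus values fell inside the range of both other tissues, and the log2 changes were -0.15 ± 1.21 in arch and -0.82 ± 1.21 in adipose tissue against thymus (SE, n = 4 each; limma adjusted p = 0.956 and 0.868). Zfp318, which in mouse B cells governs the splicing of IgD, had 0, 1098, 432.1 and 158.6 in arch pools 1 to 4, 113.3, 0, 0 and 0 in adipose pools 1 to 4, and 374.7, 141.4, 980.3 and 0 in thymus pools 1 to 4. Reads were thus missing in pools of all 3 tissues. Its log2 change was 0.12 ± 1.37 in arch against thymus (SE, n = 4 each; limma adjusted p = 0.967) and -2.56 ± 1.37 in adipose tissue against thymus (limma adjusted p = 0.471).

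Zfp608 and Zfp609, the inhibitor of Rag expression and its counterpart that relieves it in mouse thymocytes, were too low to be tested. Zfp608 had reads in arch pool 4 (32.65), adipose pool 1 (0.5811) and thymus pools 1 and 2 (28.3 and 176.5), and no read in the other 8 pools. Zfp609 had 34.2, 81.79, 33.11 and 69.96 in arch pools 1 to 4, 336.5, 0, 0 and 47.16 in adipose pools 1 to 4, and 9.623, 0, 0 and 33.82 in thymus pools 1 to 4. For this list of 7 genes, 5 were tested in arch against thymus, 2 with an unadjusted p under 0.05 in limma, beside 22.7% of all tested genes. There edgeR called 0 and DESeq2 called 1 of the 7 it tested, beside 4.01% and 11.9% over all genes. In adipose tissue against thymus 1 had an unadjusted p under 0.05 (beside 12.8%), and in arch against adipose tissue 0 did (beside 10.5%). EdgeR and DESeq2 called 0 in both. So few genes cannot be set against these shares.

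Of the 10 most abundant members, Zfp422 alone was called by limma between sites. Per kilobase of transcript, Zfp207 led with a mean of 8442 normalised reads over the 12 pools; its protein, also called BuGZ, loads the checkpoint protein BUB3 on kinetochores in dividing cells. It had 14900, 21720, 14990 and 11720 normalised reads per gene in arch pools 1 to 4, 9643, 11400, 13540 and 10040 in adipose pools 1 to 4, and 15790, 16690, 8244 and 9572 in thymus pools 1 to 4. Next per kilobase came Zfp330 (2136), a nucleolar protein, then Zfp410 (1888), Zfp422 (1629), Zfp36 (1557) and Zfp706 (1302). Zfp68 (757.5), Zfp655 (723.4), Zfp106 (500.4), an RNA-binding protein that motor neurons need, and Zfp871 (290.7) completed the 10 members with the highest means per gene.

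Zfp410, which in erythroid cells acts almost wholly through the gene of the chromatin remodeller Chd4, came near the threshold. It had 4985, 3319, 6370 and 9083 normalised reads in arch pools 1 to 4, 5892, 6072, 4282 and 6444 in adipose pools 1 to 4, and 2577, 3042, 2783 and 3975 in thymus pools 1 to 4. Adipose pools lay above all thymus pools, and arch pool 2 alone of the arch pools fell among the thymus values. The log2 change was 0.86 ± 0.30 in arch (limma adjusted p = 0.0933) and 0.87 ± 0.30 in adipose tissue (limma adjusted p = 0.163), each against thymus (SE, n = 4 each). In arch, DESeq2 called it (adjusted p = 0.0201) and so did limma without arch pool 2 (adjusted p = 0.029). Zfp68 showed how a single pool could differ: it had 5415, 1.902, 7808 and 2917 in arch pools 1 to 4, where 1.902 is 1 read, 3323, 3221, 4485 and 4079 in adipose pools 1 to 4, and 3528, 5386, 1714 and 1290 in thymus pools 1 to 4.

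**Figure D4:**
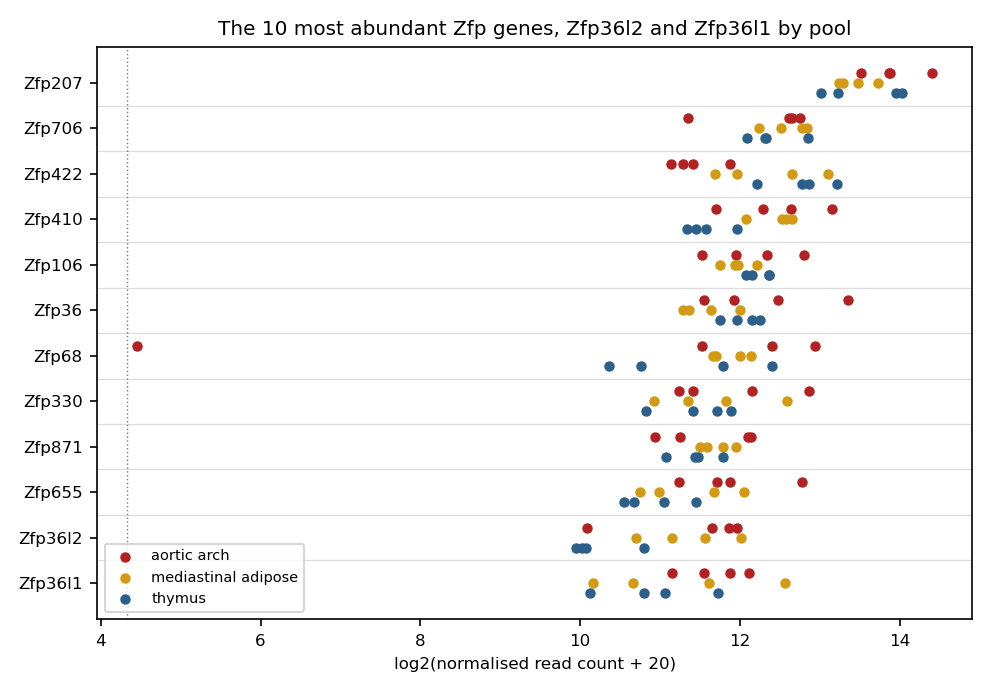
Normalised read counts, as log2(value + 20), of the 10 Zfp genes with the highest means and of Zfp36l2 and Zfp36l1, each point 1 pool, with aortic arch in the upper row of each gene, mediastinal adipose tissue in the middle and thymus below; the dotted line is no read. The point of Zfp68 at the far left is arch pool 2, with 1 read, and Zfp422 shows 4 arch points left of its 4 thymus points.

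By the proteins they encode, 132 members had at least 3 C2H2 fingers and a match to a KRAB box pattern, 134 had 5 or more fingers without such a match, and 42 had 1 to 4 fingers. The 3 Zfp36 genes, 8 genes without a C2H2 motif and 2 without a coding model made up the rest. The KRAB genes had a median of 12 fingers and a median mean of 72.7 normalised reads per kilobase, and the many-fingered genes without a KRAB match had 10 fingers and 63.8. Members with 1 to 4 fingers stood at 225 and the CCCH genes at 937 per kilobase.

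In arch against thymus limma called 2 of 100 tested members with a KRAB match, both higher, beside 3.99% of all tested genes called higher. It called 2 of 95 many-fingered members without a match, both lower, beside 2.58% of all tested genes called lower. These are few genes, and the call of Zfp101 held in 3 of 12 fits that left out 1 pool. The KRAB gene Zfp764, not called by limma, went the other way, with a log2 change of -3.05 (limma adjusted p = 0.0768; DESeq2 adjusted p = 2.85e-05). The medians of the log2 changes in arch against thymus were -0.0044 for the KRAB genes, -0.51 for the many-fingered genes without a KRAB match and -0.06 for genes with 1 to 4 fingers. In adipose tissue against thymus they were 0.17, 0.06 and -0.03. The differences between these classes were not tested. Of 23 tested corepressor genes through which KRAB proteins work, limma called 1 in arch against thymus (4.35%, beside 6.57% of all tested genes). It was Hdac1, a histone deacetylase, with 4821 ± 951 normalised reads in arch against 11250 ± 1920 in thymus (SD, n = 4). It fell, with a log2 change of -1.23 ± 0.22 (limma adjusted p = 0.00198).

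**Figure D5:**
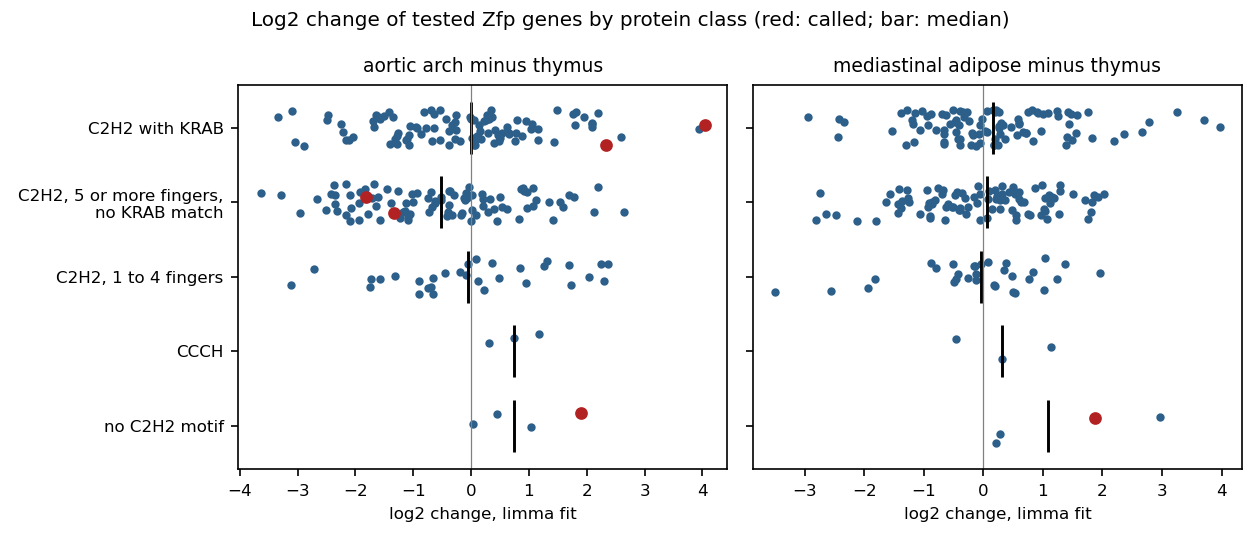
Log2 change of the tested Zfp genes by protein class, in aortic arch against thymus (left) and mediastinal adipose tissue against thymus (right), each point 1 gene, with called genes in red and the class median as a black bar. In the left panel red points stand right of 0 in the KRAB class and left of 0 in the class with 5 or more fingers and no KRAB match. The single red point without a C2H2 motif is Zfp259 in both panels, and the right panel has no other red point.

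Zfp genes often lie in clusters of near copies. Another member lay within 200 kb of 192 of the 321, and 137 of these were tested. In arch against thymus limma called 1 of these 137, Zfp101, and 4 of the 96 tested members without such a neighbour. Over all tested genes it called 6.57%. The median mean was 232.6 normalised reads for the 192 members with a neighbour and 387.9 for the 129 without. The difference in calls was not tested. More than 10% of the 50-base stretches of their transcripts occurred in another gene for 50 members, 35 of them tested. These could share reads in the counting. Of the 35, limma and edgeR called 0 in each comparison. In arch against thymus 5 (14.3%) had an unadjusted p under 0.05 in limma, beside 22.7% of all tested genes. The counts were 1 (2.86%, beside 12.8%) in adipose tissue against thymus and 3 (8.57%, beside 10.5%) in arch against adipose tissue. DESeq2 called 2, 0 and 1 in that order, beside 11.9%, 6.54% and 2.63% of the genes it tested.

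Members with roles in RNA and translation (9 tested), in transcription or chromatin complexes (14) and in retroelement silencing or imprinting (4) held 0 limma calls in each comparison. In arch against thymus 3, 1 and 0 of them had an unadjusted p under 0.05, edgeR called 0 in each list, and DESeq2 called 1, 1 and 0. Their median log2 changes in arch against thymus were 0.22, -0.28 and 0.29. In adipose tissue against thymus the medians were -0.12, -0.19 and 0.08, with 0, 2 and 0 genes at an unadjusted p under 0.05, 0 calls by edgeR, and 0, 1 and 0 by DESeq2. In arch against adipose tissue they were 0.35, -0.14 and -0.20, with 1, 0 and 0 genes at an unadjusted p under 0.05 and 0 calls by edgeR and by DESeq2. Over all tested genes, 22.7%, 12.8% and 10.5% had an unadjusted p under 0.05 in these comparisons, in the order given. DESeq2 called 11.9%, 6.54% and 2.63% of the genes it tested. The lists were not tested against these shares.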

How the data were processed

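Polyadenylated RNA of sorted DP cells was measured in 3 tissues, and the deposited table gives 1 normalised signal per gene and pool, with the libraries of a pool already joined. Per the submitters' processing notes, FastQC 0.11.5, STAR 2.6.0c and build GRCm38 were used; which tool and annotation served for counting, and with which strand setting, is not given in the sources used here. In the deposited signal every value above 0 was a whole multiple of its column's smallest value (100% whole within 0.01), so whole reads were recovered. Intervals and floors from amplified reads without molecular identifiers cover counting error only.

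The main test was limma 3.58.1 with an intensity trend in R 4.3.3, on log2(value + 20), which understates changes of low genes. It was fitted on all 12 columns with tissue as the only term and adjusted over 9106 genes. edgeR 4.0.16 (quasi-likelihood, TMM) and DESeq2 1.42.0 were run on the recovered reads as alternatives. The pool is the replicate, so p-values measure the spread between pools. The members, lists and tests were chosen with earlier results of these data known. Named members were the called ones (up to 8 per comparison and direction with the smallest adjusted p), all of the Zfp36 and T-cell lists, the 10 highest means, and members without a read in 1 tissue and with reads in all pools of another; others are said to be chosen after their values were seen. All 321 symbols were found in RefSeq, 12 of them as synonyms. Finger and KRAB patterns were searched in proteins translated from GENCODE transcripts, and the KRAB pattern can miss diverged boxes. A B cell marker is not reported here and is left out of the B cell marker sum.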

Additional observations from a re-analysis of the deposited data

Results flagged for a closer look

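In the 22 Zfp genes named by the rule, 8 of 66 groups of 4 pools held a pool whose gap to its nearest neighbour took a larger share of the group's range than Dixon's critical value allows; about 1 in 20 groups does so by chance. That rate says nothing of 3 of the 8, Zfp608 in arch and in adipose tissue and Zfp318 in adipose tissue, where the other 3 pools had no read and any read sets a pool apart. The pools that stood high were Zfp280d in adipose pool 2 (3722), Zfp36l2 in thymus pool 1 (1770), Zfp608 in arch pool 4 (32.65), adipose pool 1 (0.5811, a single read) and thymus pool 2 (176.5), Zfp609 in adipose pool 1 (336.5) and Zfp318 in adipose pool 1 (113.3). Zfp706 stood low in arch pool 2, with 2598 against 6232 to 6882 in the other arch pools. Adipose pool 1 accounted for 3 of these groups, and it is the adipose pool with the fewest tested members at 0. It also had the highest B cell (1218 CPM), fibroblast (388.8 CPM) and macrophage (224.8 CPM) marker sums of the adipose pools. Its endothelial (209.9 CPM), adipocyte (165.1 CPM) and smooth muscle (7.543 CPM) sums were the highest of that tissue too, while its NK sum (167.8 CPM) was not. The part of any of these in the values was not tested.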

How the results depend on the processing

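Over 24 alternatives, 12 of which left out 1 pool, the number of Zfp genes called by limma in aortic arch against thymus (5; 3 higher, 2 lower) became 2 with edgeR (1 higher, 1 lower), 23 with DESeq2 (12 higher, 11 lower), 3 without the 3 shallow pools (3 higher, 0 lower), 2 with pools 2 to 4 only (1 higher, 1 lower) and 3 with only the tissues compared (1 higher, 2 lower); with a pseudocount of 50 it was 7, 4 of them lower. The 3 calls without the shallow pools were Zfp958, Zfp259 and Zfp874a. Zfp101 was lost there (log2 change 1.69, limma adjusted p = 0.264). Leaving out 1 pool gave 1 to 7 calls (1 to 4 higher, 0 to 6 lower). In adipose tissue against thymus (1, higher) the count was 0 with edgeR, no filter, the replicate block or pools 2 to 4 only, 2 higher with TMM library sizes or a filter of 500, 2 with a pseudocount of 5 (1 of them lower), 8 with DESeq2 (6 higher, 2 lower), and 0 to 3 when 1 pool was left out. In arch against adipose tissue (0; 24 with an unadjusted p under 0.05) it was 8 with DESeq2 (2 higher, 6 lower) and 0 otherwise. Zfp958 kept its arch call in all but edgeR, and the cause was not tested for any of these. Uncalled changes near 0 turned sign: Zfp335 was 0.62 with edgeR and 0.61 with DESeq2 in arch against thymus (-0.82 to 0.42 when 1 pool was left out) and 0.25 and 0.20 in adipose tissue against thymus (-1.67 to 0.37), Zfp36 was -0.38 and Zfp318 -0.19 in arch against thymus without the 3 shallow pools (-0.0396 to 0.56 and -0.95 to 1.25 when 1 pool was left out), and Zfp36l1 in adipose tissue against thymus ran from -0.12 to 0.68. The median log2 change of tested members in arch against thymus, -0.19, was 0.04 with edgeR, where that of all genes was -0.06 in place of -0.20; in adipose tissue against thymus it ran from -0.18 to 0.18 and in arch against adipose tissue from -0.38 to 0.09. Deviations of pools that share a number correlated at -0.03 to 0.08 over 3 comparisons, never above 0.1. A pool correlated best with its own number in 11 of 24 cases, where 6 would do so if numbers meant nothing. These values do not settle whether the numbers pair the pools, and the main fit did not pair them. With the pool number as a replicate block the counts were 6 (3 higher, 3 lower), 0 and 0. Depth limits the low members: 20 normalised reads are 10.5 to 35.3 reads, and the filter of 100 is 52.6 to 177 reads.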

Other observations

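Another zinc finger family, the Klf transcription factors, had as many limma calls as the Zfp genes from fewer tested members. Of 10 tested, limma called 4 higher and 1 lower in aortic arch against thymus (50%, beside 6.57% of all tested genes), where edgeR called 3 and DESeq2 called 6. In mediastinal adipose tissue against thymus limma called 1, higher (10%, beside 2.84%), edgeR called 1 and DESeq2 called 4. In arch against adipose tissue limma called 0 (3 with an unadjusted p under 0.05; 0 by edgeR and by DESeq2). Klf2, a regulator of T-cell egress and quiescence, had 3331 ± 269 normalised reads in arch against 76.11 ± 56.6 in thymus (SD, n = 4), a log2 change of 5.45 ± 0.89 (limma adjusted p = 0.000664). Klf6 had 6659 ± 2410 normalised reads in arch and 4259 ± 896 in adipose tissue, against 1233 ± 464 in thymus (SD, n = 4), with log2 changes of 2.43 ± 0.35 (limma adjusted p = 0.000195) and 1.83 ± 0.35 (limma adjusted p = 0.00398) against thymus. Among tested Zbtb (26), Zc3h (15) and Zscan or Zkscan (11) genes limma called 0 in arch against thymus. There 5, 4 and 0 had an unadjusted p under 0.05, edgeR called 0, 1 and 0, and DESeq2 called 1, 4 and 2. Over all tested genes 22.7% had an unadjusted p under 0.05, edgeR called 4.01%, and DESeq2 called 11.9% of those it tested. The difference between families was not tested.

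Large changes that missed the threshold, chosen after their values were seen, went with pools at or near 0 reads. Zfp599, a KRAB gene on chromosome 9, had 193, 1286, 1144 and 688.8 normalised reads in arch pools 1 to 4 against 0, 413.6, 2.913 and 0 in thymus pools 1 to 4, a log2 change of 3.95 ± 1.33 (SE, n = 4 each; limma adjusted p = 0.0832). Limma called it without thymus pool 2, but edgeR and DESeq2 did not call it. Zfp192, or Zkscan8, had 9.772, 26.63, 196.2 and 15.55 in arch pools 1 to 4 against 429.6, 778.7, 1143 and 598.9 in thymus pools 1 to 4, and the groups did not overlap. Its log2 change was -3.64 ± 1.10 (SE, n = 4 each; limma adjusted p = 0.0542), and limma called it with a pseudocount of 50, with the replicate block, and without arch pool 3 or adipose pool 4. Neither edgeR nor DESeq2 called Zfp192. In adipose tissue, Zfp709 had 991.9, 1329, 66.12 and 461.2 in pools 1 to 4 against 0, 0, 24.76 and 32.17 in thymus pools 1 to 4 (log2 change 3.97 ± 1.13; SE, n = 4 each; limma adjusted p = 0.0717). DESeq2 called it there, as did limma without adipose pool 3 or arch pool 4, but edgeR did not. Zfp580 had 0, 7.261, 0 and 0 in adipose pools 1 to 4 against 210, 52.36, 388.9 and 501.6 in thymus pools 1 to 4 (log2 change -3.50 ± 1.00; SE, n = 4 each; limma adjusted p = 0.0722), and DESeq2 called it, as did limma with a pseudocount of 5. With edgeR Zfp580 was not called.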
